A study of Mus musculus with 11 samples.

Results

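The 8 genes described here make, fuel or compete with nitric oxide synthesis: Nos2, Gch1, Slc7a2, Ass1, Asl, Arg1, Arg2 and Odc1. They were chosen by symbol, as the core of arginine use in macrophages, from the 52143 genes of the deposited expression table, and each symbol matched a single gene. The series profiled total RNA of RAW cells, a mouse macrophage-like line, to ask what GIV does in the response to lipopolysaccharide (LPS), a bacterial cell wall component. GIV, or girdin, is a signalling scaffold protein encoded by Ccdc88a. All cells carried a short hairpin RNA: a control hairpin (shC) or one against GIV (shGIV), and each line was sampled at 0 h, with no LPS, and at 5 h, with LPS at 100 ng/ml. The labels do not give whether each line is 1 clone or a pool, nor whether replicates come from separate cultures. P-values here therefore reflect the spread of these samples alone, and that spread may be technical.

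Inducible nitric oxide synthase, the product of Nos2, turns arginine into nitric oxide and citrulline and is the textbook effector of macrophages activated by LPS. It needs the cofactor tetrahydrobiopterin, whose synthesis starts with GTP cyclohydrolase (Gch1), and arginine, which enters through cationic transporters such as Slc7a2 or is rebuilt from citrulline by argininosuccinate synthase (Ass1) and argininosuccinate lyase (Asl). Arginases (Arg1 in the cytosol, Arg2 in mitochondria) split the same arginine into urea and ornithine, from which ornithine decarboxylase (Odc1) makes the polyamine putrescine.

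Levels are in TPM, a share of each library's transcripts that is scaled for transcript length, so levels of different genes can be set side by side. TPM keep no read count, so depth and counting error are unknown. The labels list 11 samples and 10 had a column; control cells with LPS are therefore a single library, replicate 2, and its replicate 3 is not analysed here. The control library without LPS labelled replicate 2 stood apart: protein-coding genes made up 7.80% there and 73.9% to 81.5% in the remaining 9 libraries, while the single transcript Mir6236 made up 57.8% there and 3.79% to 8.78% elsewhere. Its values are given apart, and fits used the other 9 libraries, with 2, 3, 1 and 3 libraries in the groups control without LPS, depleted without LPS, control with LPS and depleted with LPS. Macrophage markers were high in all 9 (9 of 10 reached 1 TPM, Lyz2 the highest). Their summed level was 19310 to 19790 TPM in control and 18150 to 18700 TPM in depleted cells without LPS, and 14730 and 12270 to 12850 TPM with LPS. Lyz2 made up most of that sum. Like Cd68 and Csf1r, Lyz2 was lower with LPS in both lines, while Adgre1, Itgam, Ptprc, Cd14 and Fcgr1 were higher in both. Markers of T cells, B cells, fibroblasts and epithelium stayed under 1 TPM each, and Krt18, Alb and Cps1 were at 0; the endothelial list reached a sum of 0.918 TPM without LPS and 2.28 TPM with it. The neutrophil list moved with LPS, from a sum of 1.09 to 3.95 TPM to 13.3 to 17.3 TPM, almost all of it S100a8, while Ly6g, Elane and Mpo stayed under 1 TPM. The part of these markers in the results was not tested. In bulk RNA, fewer cells of a kind and less RNA per cell cannot be told apart.

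Ccdc88a, the hairpin's target, stood at 10.0 and 7.69 TPM in the control libraries without LPS (1.18 TPM in the library shown apart) and the depleted ones had 6.93, 5.31 and 5.58 TPM. After LPS the control library had 5.77 TPM and the depleted ones had 3.08, 2.62 and 3.39 TPM. The depleted mean was thus 67.2% of control at 0 h and 52.5% at 5 h. The groups did not overlap at either time, as in 28.3% of all genes tested at 0 h and 64.5% at 5 h. Neither difference passed limma's test across all genes (log2 difference -0.50 ± 0.15 (SE), adjusted p = 0.232 without LPS, and -0.75 ± 0.19, adjusted p = 0.0681 with LPS).

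**Figure D1:**
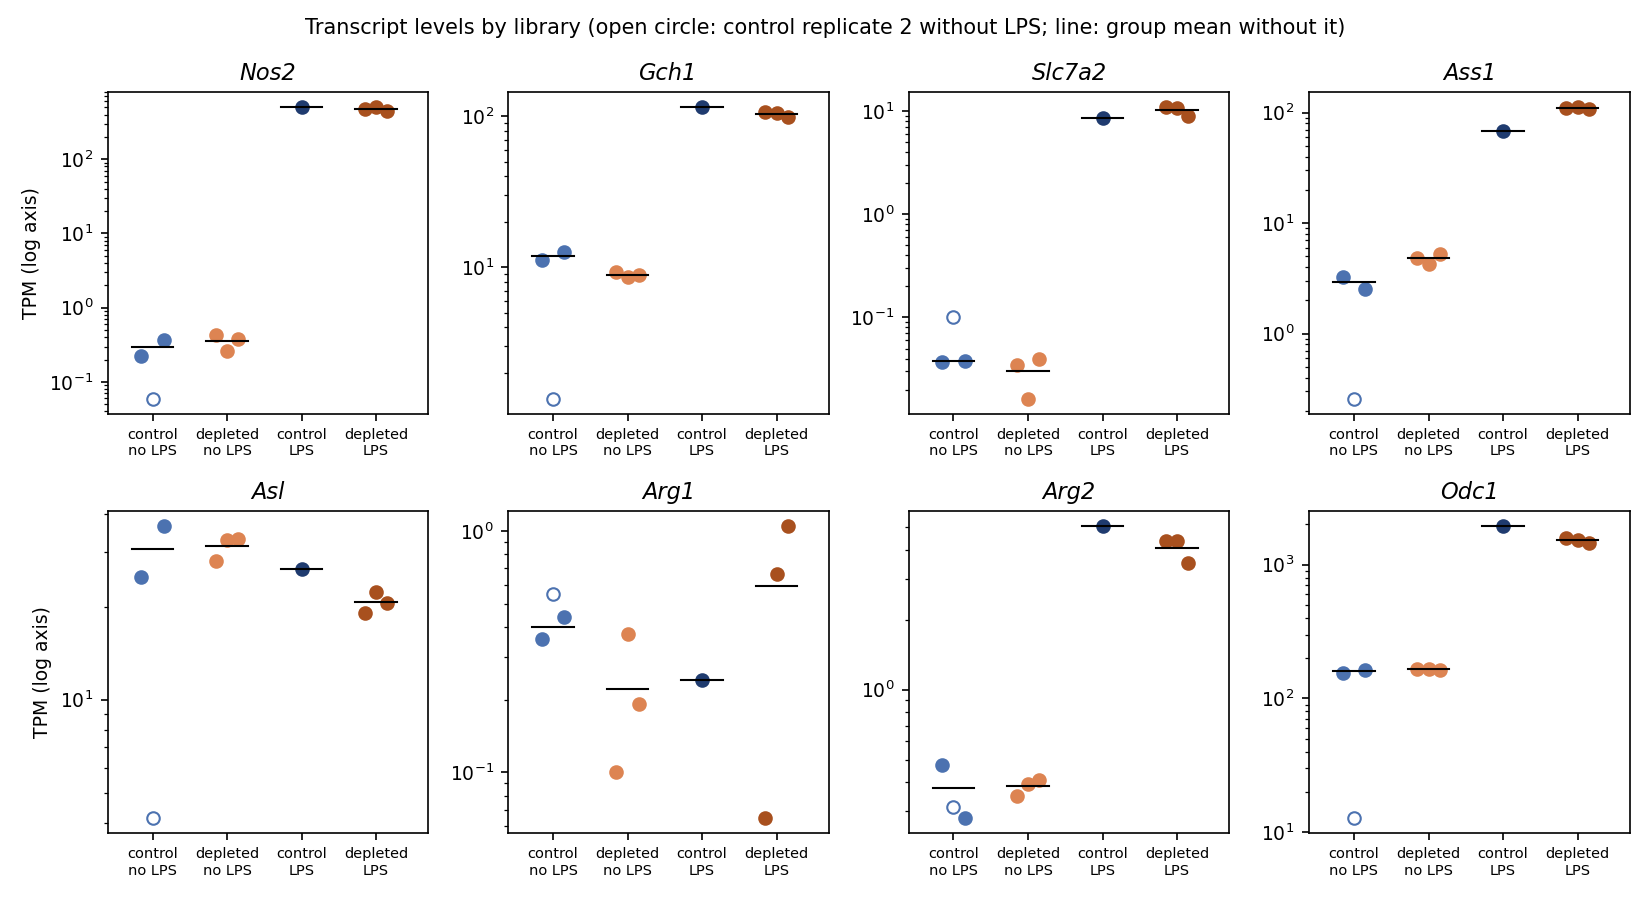
Transcript level in TPM (log axis, different range in each panel) of the 8 genes, 1 point per library, by line and LPS, with a line at the group mean. Nos2, Gch1, Slc7a2, Ass1, Arg2 and Odc1 lie higher in every library with LPS than in any library without it, Asl and Arg1 do not, and the open circle is the control library shown apart.

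LPS raised the nitric oxide synthase and its cofactor enzyme to high levels in both lines. Nos2 (chromosome 11, 78920787 to 78960254, plus strand, GRCm38, 27 exons in the transcript the table lists) stood at 0.220 and 0.369 TPM in the control libraries without LPS, 0.0591 TPM in the library shown apart, and 0.430, 0.259 and 0.384 TPM in depleted cells. After LPS the level was 499.5 TPM in control cells and 478, 511 and 451 TPM in depleted cells. It went from a barely detected transcript, between ranks 14070 and 15660 of all genes in a library, to ranks 296 to 313, and control and depleted libraries overlapped at both times. The ratio of group means was 1696 in control and 1342 in depleted cells, ratios whose base is under 1 TPM and therefore imprecise. On the log2(TPM + 1) scale, on which all differences below are given and which understates changes of low genes, the LPS difference of Nos2 was 8.60 ± 0.12 (SE) in control cells (limma adjusted p = 1.93e-08) and 8.47 ± 0.08 in depleted cells (limma adjusted p = 7.20e-10). These were the 9th and the 10th highest differences of the 13711 genes tested.

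Gch1 (chromosome 14, 47153895 to 47189413, minus strand, 6 exons), the rate-limiting enzyme of tetrahydrobiopterin synthesis, was already present without LPS, at 11.2 and 12.5 TPM in control cells (1.35 TPM in the library shown apart) and 9.38, 8.61 and 8.89 TPM in depleted cells. LPS took it to 116 TPM in control cells and 107, 105 and 98.7 TPM in depleted cells. Depleted libraries lay below control libraries at both times, and all libraries with LPS lay above all without. The LPS difference was 3.18 ± 0.10 in control cells (limma adjusted p = 2.95e-07) and 3.39 ± 0.07 in depleted cells (limma adjusted p = 8.61e-09). The processed pseudogene Gm49134, listed at 0.624 to 17.6 TPM in the 9 libraries, lies within Gch1 on the opposite strand, and how reads were shared between overlapping genes is not given in the sources used here.

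RefSeq's promoter table (GRCm38.p6) matched 3 of the 8 genes, Gch1, Odc1 and Ass1. Their promoter stretches are shown because only these 3 had an entry. All 3 rose with LPS from a level already measurable without it. Each stretch is given 5′ to 3′ on the gene's strand and ends just before the first annotated base of the gene. The stretches of Odc1 and Ass1 end 79 and 63 bases before the start site of RefSeq's window, and those bases were not searched. Capitals mark matches to the motifs searched. They lie at chr14:47189414-47189663 (Gch1, minus strand), chr12:17544623-17544793 (Odc1, plus strand) and chr2:31470020-31470206 (Ass1, plus strand).
Gch1: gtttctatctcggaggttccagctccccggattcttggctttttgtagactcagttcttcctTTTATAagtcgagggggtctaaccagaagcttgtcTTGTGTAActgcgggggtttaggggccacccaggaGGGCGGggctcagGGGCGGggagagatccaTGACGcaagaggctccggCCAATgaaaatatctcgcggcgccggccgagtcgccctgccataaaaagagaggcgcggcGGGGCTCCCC
Odc1: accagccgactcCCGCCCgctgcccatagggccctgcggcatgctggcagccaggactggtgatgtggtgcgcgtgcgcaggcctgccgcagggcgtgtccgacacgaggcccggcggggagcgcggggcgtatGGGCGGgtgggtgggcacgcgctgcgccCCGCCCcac
Ass1: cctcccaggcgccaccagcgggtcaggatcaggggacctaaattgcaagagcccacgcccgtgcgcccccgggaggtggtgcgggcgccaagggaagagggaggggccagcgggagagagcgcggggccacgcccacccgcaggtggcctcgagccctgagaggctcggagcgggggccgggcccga
The motifs, on both strands, were the kappa B consensus, AP-1 (TGANTCA), GAS (TTCNNNGAA), ISRE, C/EBP (TTNNGNAA), the CRE core (TGACG), the CCAAT box, the GC box (GGGCGG), the E box (CACGTG) and the TATA box (TATAAA). In the 250 bases of Gch1 the kappa B consensus matched the last 10 bases, GGGGCTCCCC, on both strands, and 7.25% of the 32851 promoter windows of the same length held a match. The Gch1 stretch also held a C/EBP match, TTGTGTAA (36.8% of windows), a CRE core (17.8%), a CCAAT box (33.8%), 2 GC boxes (32.7%) and TATAAA on the minus strand (12.4%). The 171 bases of Odc1 held 3 GC boxes, which 19.6% of windows of that length hold at least once, and no match to the other motifs; the 187 bases of Ass1 held no match to any. GC content was 59.2% for Gch1, 77.2% for Odc1 and 75.4% for Ass1, against a median of 52.4% over the first 250 bases of all windows. A match describes letters and is not evidence of binding.

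Genes that supply arginine to the synthase split into 2 that rose and 1 that did not. Slc7a2 (chromosome 8, 40862396 to 40922308, plus strand, 12 exons), a cationic amino acid transporter, was close to undetected without LPS, at 0.0371 and 0.0381 TPM in control cells (0.102 TPM in the library shown apart) and 0.0347, 0.0163 and 0.0400 TPM in depleted cells. After 5 h of LPS it reached 8.61 TPM in control cells and 11.0, 10.6 and 8.90 TPM in depleted cells. The lines overlapped without LPS, and with LPS the control library lay just under the lowest depleted one. The LPS difference was 3.21 ± 0.17 in control cells (limma adjusted p = 3.98e-06) and 3.43 ± 0.12 in depleted cells (limma adjusted p = 1.07e-07).

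Ass1 (chromosome 2, 31470207 to 31520672, plus strand, 16 exons), which joins citrulline and aspartate, stood at 3.26 and 2.56 TPM in control cells without LPS, 0.256 TPM in the library shown apart, and 4.80, 4.29 and 5.31 TPM in depleted cells. With LPS it stood at 68.9 TPM in control cells and 109.6, 114 and 108 TPM in depleted cells. Every depleted library lay above every control library at the same time. The LPS difference was 4.16 ± 0.14 in control (limma adjusted p = 3.69e-07) and 4.27 ± 0.09 in depleted cells (limma adjusted p = 1.36e-08).

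Asl (chromosome 5, 130011258 to 130029247, minus strand, 17 exons), which completes the return of citrulline to arginine, stood at 24.9 and 36.6 TPM in control cells without LPS, 4.13 TPM in the library shown apart, and 28.2, 32.9 and 33.3 TPM in depleted cells. Its level with LPS was 26.5 TPM in control cells and 19.1, 22.3 and 20.5 TPM in depleted cells. The control library with LPS lay between the control libraries without it, whereas each depleted library with LPS lay below each one without. The LPS difference was -0.18 ± 0.21 in control cells (limma adjusted p = 0.488) and -0.58 ± 0.14 in depleted cells (limma adjusted p = 0.00570), the latter close to the median of all genes tested in that comparison, -0.54. Under TMM scaling the difference in depleted cells was -0.02 (limma adjusted p = 0.914) and that in control cells turned to 0.25 (adjusted p = 0.323). In control cells it also turned to 0.09 without control replicate 3 (adjusted p = 0.660) and passed the test, at -0.45, without control replicate 1 (adjusted p = 0.0424).

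Of the arginine-splitting enzymes, Arg2 rose and Arg1 stayed at the edge of detection. Arg1 (chromosome 10, 24915221 to 24927484, minus strand, 8 exons), the arginase that macrophages express under interleukin-4, stood at 0.357 and 0.440 TPM in control cells without LPS, 0.549 TPM in the library shown apart, and 0.1003, 0.373 and 0.193 TPM in depleted cells. With LPS it stood at 0.240 TPM in control cells and 0.0646, 0.667 and 1.05 TPM in depleted cells. The 3 depleted libraries with LPS span values below and above all others, so no order of the groups can be read. Arg1 did not reach the filter for testing (a log2(TPM + 1) of 1 or more, reached by 2 or more libraries). Without that filter none of its 5 comparisons passed limma's test (adjusted p 0.357 to 0.861), where 29.8% (control) and 39.7% (depleted) of 28397 genes passed for LPS, 0.465% and 3.14% for depletion at 0 h and 5 h, and 1.27% for the difference between responses.

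Arg2 (chromosome 12, 79130777 to 79156301, plus strand, 8 exons) stood at 0.474 and 0.280 TPM in control cells without LPS, 0.312 TPM in the library shown apart, and 0.348, 0.394 and 0.410 TPM in depleted cells. LPS libraries held 5.06 TPM in control cells and 4.35, 4.37 and 3.51 TPM in depleted cells. All libraries with LPS lay above all without, and the LPS difference was 2.14 ± 0.20 in control (limma adjusted p = 5.65e-05) and 1.87 ± 0.13 in depleted cells (limma adjusted p = 5.05e-06). Arg2 overlaps Vti1b on the opposite strand, which stood at 58.5 to 80.0 TPM in the 9 libraries, and the sources used here do not state whether strand was used in quantification, so reads of the pair may not be told apart.

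Odc1 (chromosome 12, 17544794 to 17551505, plus strand, 12 exons), the first step from ornithine to polyamines, was the most abundant of the 8 genes in every library. It stood at 156 and 163 TPM in control cells without LPS (12.7 TPM in the library shown apart) and 166, 166 and 164 TPM in depleted cells, and with LPS at 1952 TPM in control and 1592, 1536 and 1454 TPM in depleted cells. The lines lay close together without LPS, the control libraries just below, while with LPS all 3 depleted libraries lay below the control library. The LPS difference was 3.60 ± 0.08 in control (limma adjusted p = 5.63e-08) and 3.20 ± 0.05 in depleted cells (limma adjusted p = 3.57e-09), and Odc1 reached rank 70 of all genes in control cells and ranks 81 to 92 in depleted cells. The snoRNA gene Gm22748, listed at 3.04 to 272 TPM, lies within Odc1 on the same strand.

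In all, 6 of the 7 genes tested were called higher with LPS in control cells and 6 in depleted cells, where Asl was called lower; 58.9% of all 13711 genes were called in control cells (14.8% higher, 44.1% lower) and 75.5% in depleted cells (15.8% higher, 59.7% lower). Nos2, Slc7a2 and Arg2 reached the filter only through the libraries with LPS, so their calls follow in part from the filter and the count is a description; Ass1, Asl, Odc1 and Gch1 reached it without LPS as well. The median difference of all genes was -0.40 in control and -0.54 in depleted cells, and TMM scaling moved these medians to -0.02 and -0.06 without changing the call of the 6 genes that rose. With the library shown apart included, the LPS call of Odc1 was lost in both lines (limma adjusted p = 0.120 in control and 0.0535 in depleted cells) and that of Asl in depleted cells (0.617), and the other 5 genes that rose kept their calls.

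The order of the genes by level changed with LPS. Without it, Odc1 was followed by Asl, Gch1 and Ass1 in each of the 5 libraries, then by Nos2, Arg1 and Arg2, whose ranges overlapped in each line, and by Slc7a2 last. In control cells with LPS the order was Odc1, Nos2, Gch1, Ass1, Asl, Slc7a2, Arg2 and Arg1. In depleted cells with LPS it was the same except that Ass1, at a mean of 110.3 ± 2.80 TPM (SD, n = 3), stood just above Gch1, at 103.7 ± 4.42 TPM, with 108 TPM the lowest of the one and 107 TPM the highest of the other.

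Ratios within a library do not depend on how that library was scaled. Nos2 over the sum of Arg1 and Arg2 was 0.265 and 0.512 in control and 0.959, 0.337 and 0.636 in depleted libraries without LPS, and 94.2 in control and 108, 101 and 99.0 in depleted libraries with LPS. Arginase transcripts thus outnumbered Nos2 transcripts in all 5 libraries without LPS, and Nos2 exceeded them in all 4 with it. Without LPS Nos2, Arg1 and Arg2 each stood under 1 TPM, so every ratio built on them is imprecise there. The ratio of Ass1 to Asl was 0.131 and 0.0699 in control and 0.170, 0.130 and 0.160 in depleted libraries without LPS, and 2.60 in control against 5.73, 5.08 and 5.27 in depleted libraries with LPS. Ass1 was therefore the scarcer of the pair in every library without LPS and the more abundant in every library with it, and with LPS the depleted libraries all lay above the control library. Gch1 over Nos2 fell from 21.8 to 51.0 without LPS to 0.206 to 0.232 with it, values with a small spread and with control and depleted libraries close together.

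**Figure D2:**
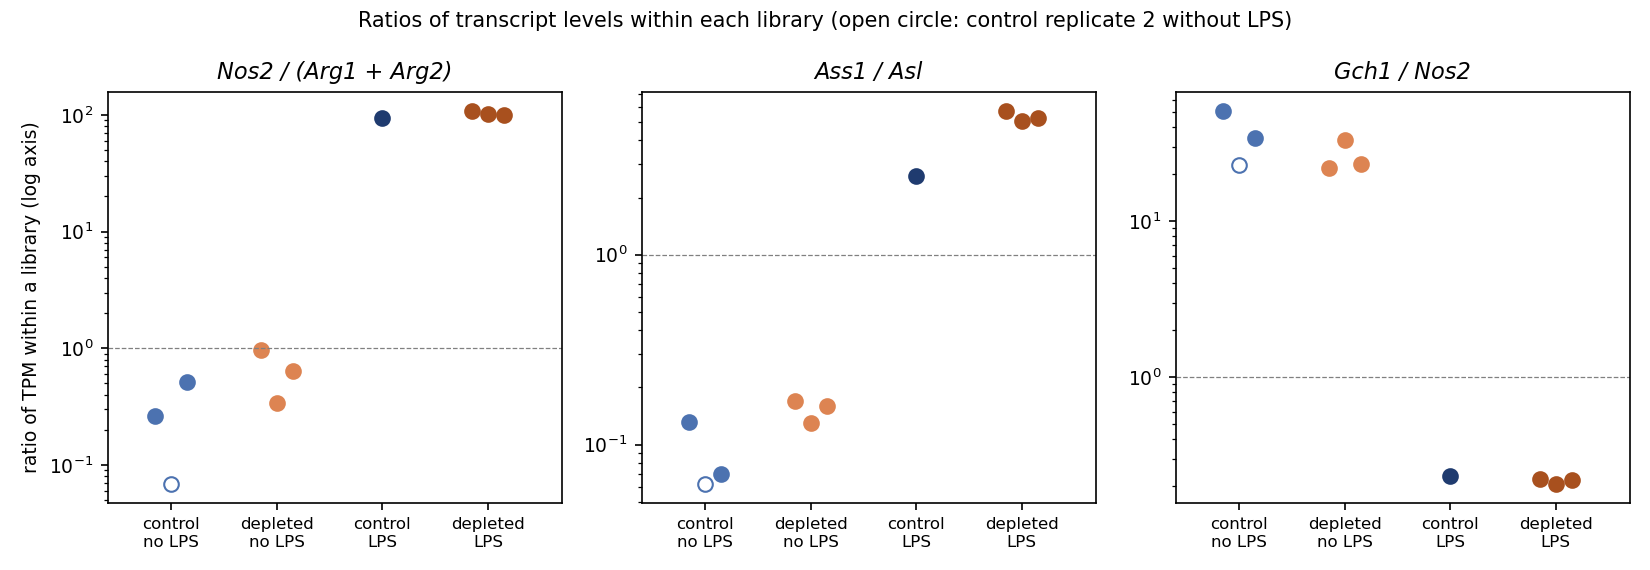
Ratios of TPM within each library (log axis; dashed line at equal levels) for Nos2 over both arginases, Ass1 over Asl and Gch1 over Nos2, 1 point per library by line and LPS. The first and the second ratio cross the line of equal levels upward with LPS, to 94.2 and above and 2.60 and above, and the third crosses it downward to 0.232 and below.

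GIV depletion without LPS changed none of the 7 tested genes past the threshold, where 1.22% of all genes were called. At an unadjusted limma p under 0.05 there were 2, Ass1 and Gch1. The share of all genes at that unadjusted limit is not given here. Ass1 was higher in depleted cells by 0.57 ± 0.10 (95% interval 0.33 to 0.81, limma adjusted p = 0.0528), a mean of 4.80 ± 0.508 TPM (SD, n = 3) against 2.91 ± 0.499 TPM (SD, n = 2). Gch1 was lower by 0.37 ± 0.07 (a difference of -0.37, 95% interval -0.54 to -0.20, limma adjusted p = 0.0711), a mean of 8.96 ± 0.390 TPM against 11.9 ± 0.928 TPM. The groups did not overlap for Ass1, Gch1 and Odc1, 3 of 7, against 28.3% of all genes. Ass1 passed the test with a pseudocount of 0.1 (adjusted p = 0.0491) or a stricter filter (0.0363), and Gch1 passed it after TMM scaling (0.0223) or rescaling with mitochondrial and the most abundant genes left out (0.0158), while the fit with the library shown apart turned the Gch1 difference to 0.45 (0.614).

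For the other 5 genes without LPS the intervals of the depleted minus control difference included 0. That of Nos2 ran from -0.14 to 0.28 around 0.07 and that of Odc1 from -0.08 to 0.18 around 0.05. The intervals of Slc7a2 (-0.31 to 0.29), Arg2 (-0.33 to 0.35) and Asl (-0.31 to 0.42) were wider, and no line was consistently above the other in these 3 genes.

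With LPS, depletion went with more Ass1 and less Odc1, the 2 of 7 genes called, where 5.27% of all genes were called (0.89% higher and 4.38% lower). Ass1 was higher in depleted cells by 0.67 ± 0.13 (95% interval 0.37 to 0.98, limma adjusted p = 0.0303), 110.3 ± 2.80 TPM (SD, n = 3) against the single control value of 68.9 TPM, a ratio of means of 1.60. Odc1 fell by 0.35 ± 0.07 (a difference of -0.35, 95% interval -0.52 to -0.19, limma adjusted p = 0.0334), 1527 ± 69.2 TPM against 1952 TPM, so the depleted mean was 21.8% lower. Nos2, in contrast, stood at 480 ± 30.1 TPM against 499.5 TPM, a difference of -0.06 with an interval of -0.33 to 0.21 (limma adjusted p = 0.809), and TMM scaling turned its sign (0.10).

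Both calls rest on 1 control library, and the fit takes its spread to be that of the other groups. Neither call held with the replicate number fitted as a block, where the differences were 0.63 for Ass1 and -0.35 for Odc1. Both were lost with the library shown apart included (limma adjusted p = 1.0 for each) and when only the groups compared were fitted (0.0904 for Ass1 and 0.195 for Odc1). Each kept its sign in all 16 alternatives, Ass1 passing the test in 8 of them (adjusted p 0.0191 to 1.0) and Odc1 in 6 (0.0302 to 1.0). Ass1 lost the call without depleted LPS replicate 1, 2 or 3 (0.0635, 0.0727 and 0.0757) and without depleted no-LPS replicate 1 (0.0594); Odc1 lost it without depleted LPS replicate 2 or 3 (0.0653 and 0.0773) and without depleted no-LPS replicate 1, 2 or 3 (0.0673, 0.0827 and 0.0741). Scaling moved Odc1 most: TMM gave -0.20 (adjusted p = 0.0772) and the rescaling that leaves out mitochondrial and top genes gave -0.24 (0.0533), while the median of all genes moved from -0.12 to 0.01 under TMM. The Ass1 difference grew to 0.83 under TMM (0.0198).

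**Figure D3:**
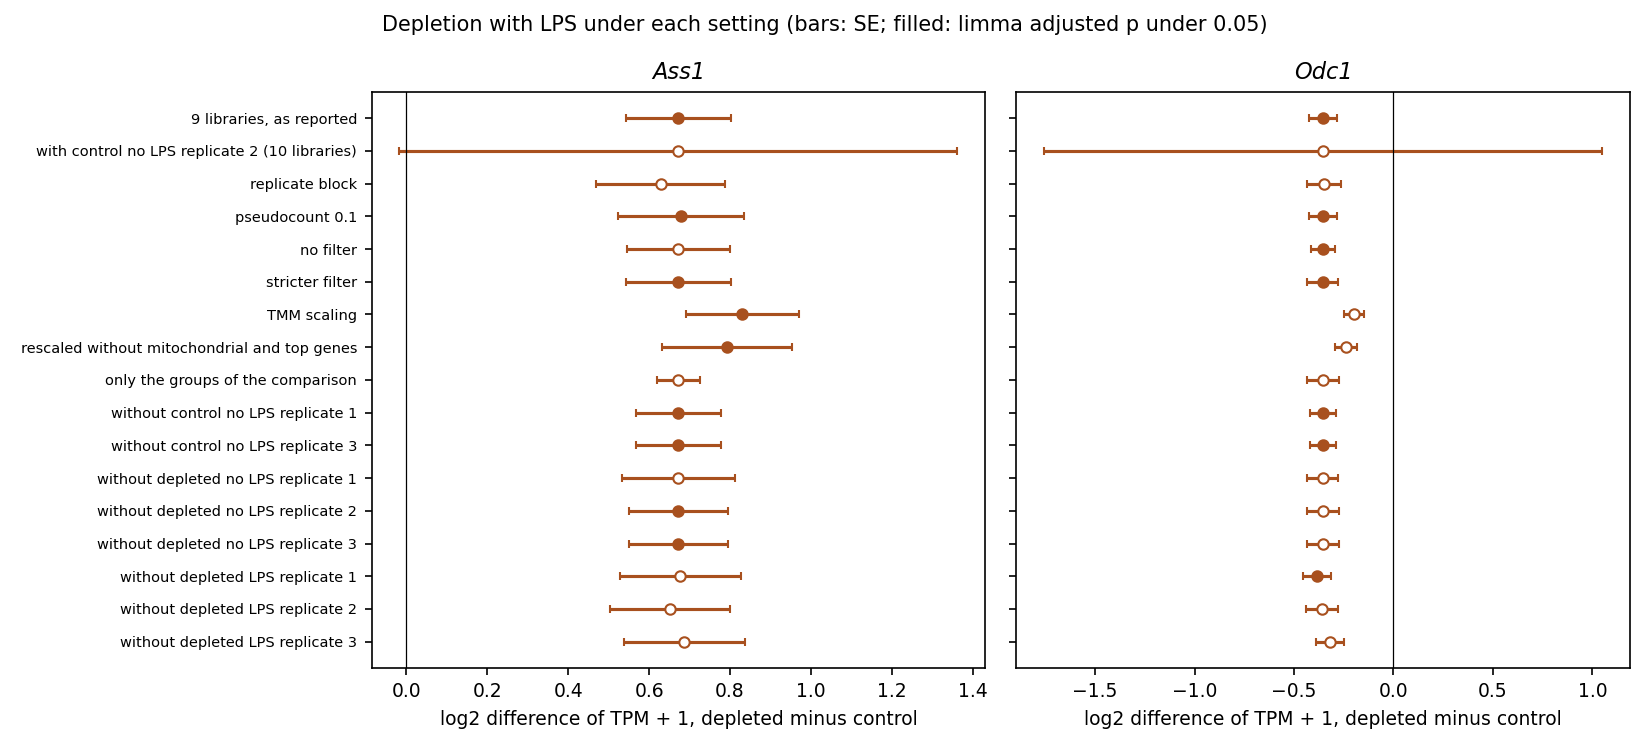
Depleted minus control log2 difference of Ass1 and Odc1 with LPS (x axis, different ranges) under each setting (y axis), with bars of 1 standard error and filled points where limma's adjusted p is under 0.05. All points for Ass1 lie above 0 (0.63 to 0.83) and all for Odc1 below it (-0.38 to -0.20), while 8 of 16 and 6 of 16 alternatives are filled. Settings that change only the filter, the libraries without LPS or the groups fitted share the same difference by design.

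The remaining 4 genes with LPS did not pass the test. Asl differed by -0.35 (95% interval -0.81 to 0.12, limma adjusted p = 0.356), Arg2 by -0.26 (-0.69 to 0.17, adjusted p = 0.459), Slc7a2 by 0.21 (-0.17 to 0.59, adjusted p = 0.5002) and Gch1 by -0.16 (-0.38 to 0.06, adjusted p = 0.360). In 6 of the 7 tested genes, all but Nos2, the control value lay outside the depleted range, as it did for 64.5% of all genes, a frequent pattern with a single control library.

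The LPS response itself was compared between the lines with an interaction term. None of the 7 genes passed limma's test at the adjusted threshold, where 0.226% of all genes did. At an unadjusted limma p under 0.05 there was 1, and the share of all genes at that unadjusted limit is not given here. Odc1 came nearest: its response was smaller in depleted cells by 0.41 ± 0.09 (an interaction of -0.41, 95% interval -0.62 to -0.19, adjusted p = 0.102). For Ass1 the interaction was 0.10 (95% interval -0.29 to 0.49, adjusted p = 0.784), and the depleted mean was 1.65 times the control mean without LPS and 1.60 times with it. Intervals for the other genes were -0.47 to 0.22 for Nos2, -0.06 to 0.49 for Gch1, -0.26 to 0.71 for Slc7a2, -0.99 to 0.19 for Asl and -0.82 to 0.28 for Arg2.

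**Figure D4:**
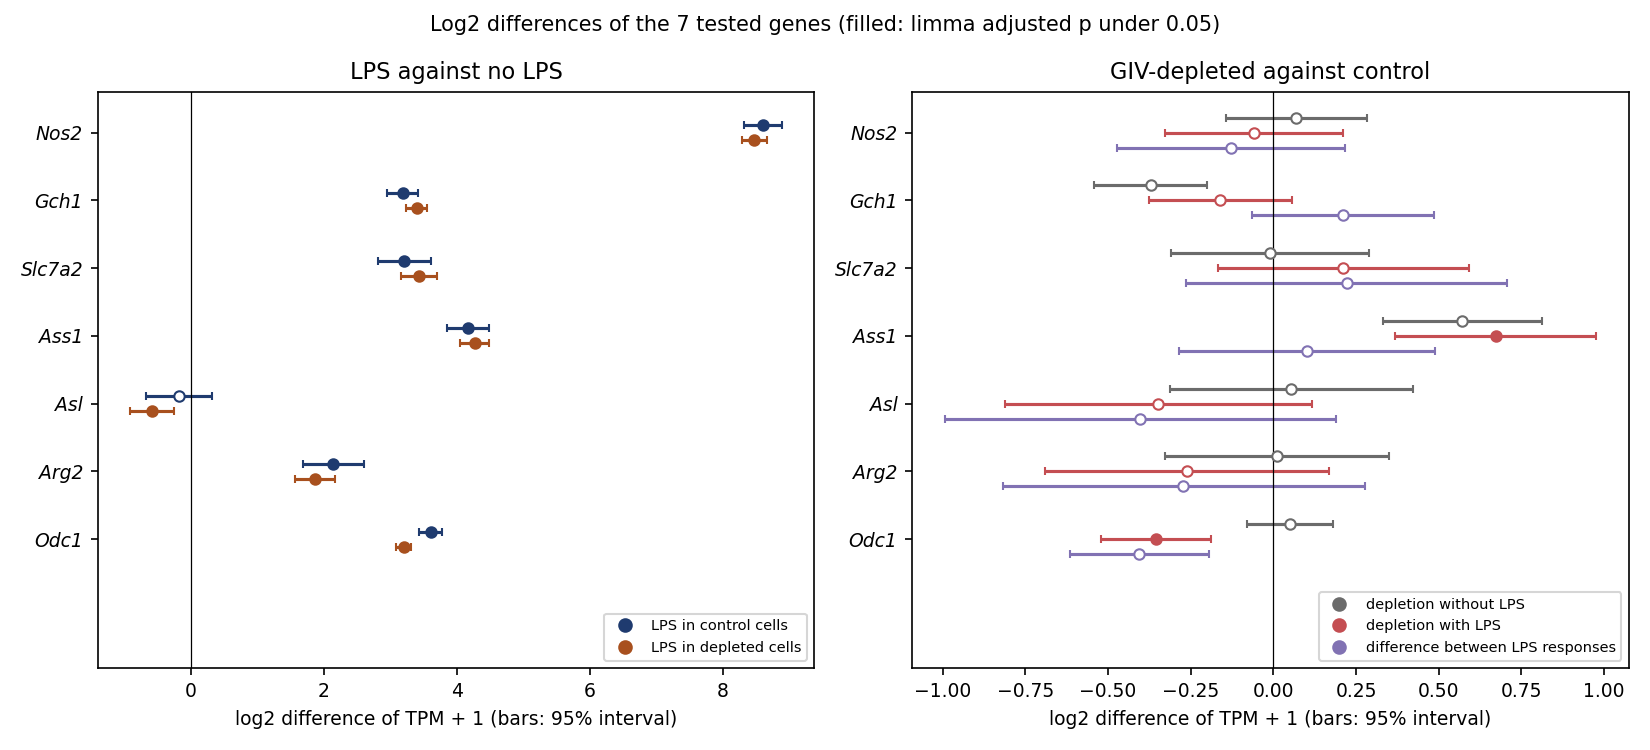
Log2 differences of TPM + 1 for the 7 tested genes with 95% intervals, LPS against no LPS in each line (left) and depleted against control without LPS, with LPS and as the difference of the LPS responses (right); filled points have a limma adjusted p under 0.05. On the left 6 genes lie between 1.87 and 8.60 and Asl lies below 0, and on the right the filled points are Ass1 at 0.67 and Odc1 at -0.35, both with LPS.

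The genes around this core were read from 12 lists of the wider arginine pathway, 62 symbols of which 61 matched and 46 genes were tested. With LPS 9 of the 46 were called higher and 30 lower in control cells, and 9 higher and 34 lower in depleted cells; under TMM scaling the split was 13 higher and 16 lower, and 12 higher and 24 lower. Without that scaling, 14.8% of all genes tested were called higher and 44.1% lower in control cells, and 15.8% and 59.7% in depleted cells. All genes thus leaned to lower values too. The list median was lower still, at -0.59 in control and -0.77 in depleted cells, beside -0.40 and -0.54 for all genes. Under TMM scaling the list median was -0.17 and -0.24, beside -0.02 and -0.06 for all genes. Whether the lists differ from all genes was not tested. For TMM scaling, here and in the paragraphs below, the shares of all genes called are not given. Counts under that scaling therefore have no such share beside them. Cps1, Otc and Nags, the liver enzymes that open the urea cycle, were listed at 0 in all 9 libraries, as were Ddah1, Gucy1b1 and Prkg1.

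**Figure D5:**
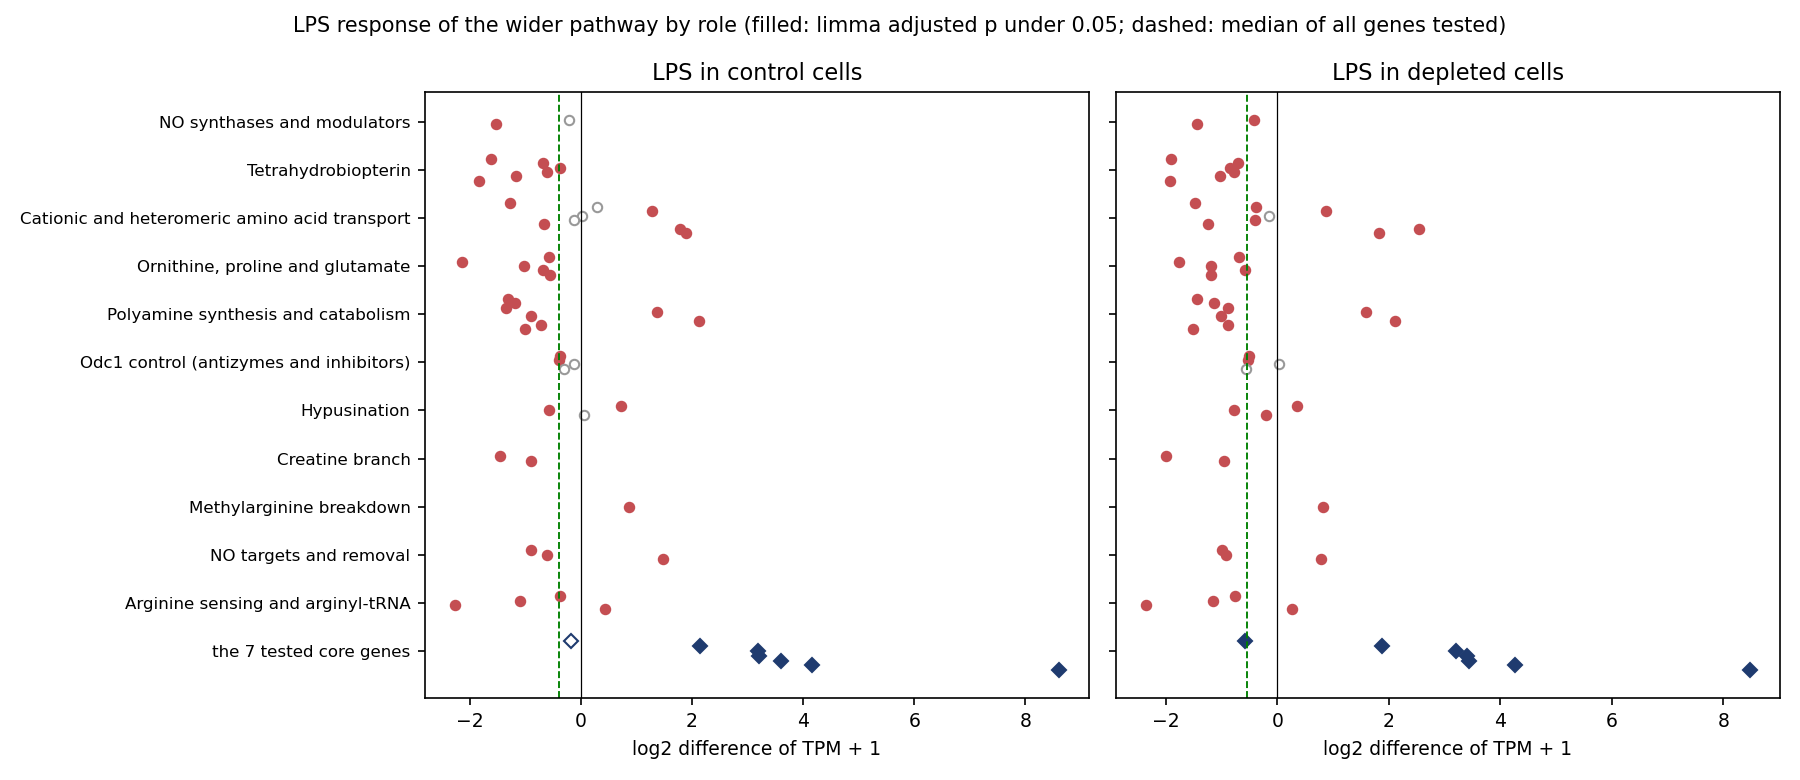
Log2 difference of TPM + 1 with LPS (x axis) for the 46 tested genes of the wider pathway by role (y axis; filled where limma's adjusted p is under 0.05) and for the 7 tested core genes (diamonds), in control and depleted cells, with a dashed line at the median of all genes tested, -0.40 and -0.54. Most pathway genes lie left of 0, and the core genes other than Asl lie right of 1.

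Of the other tetrahydrobiopterin genes, all 6 tested were called lower in both lines, where 44.1% of all genes were called lower in control and 59.7% in depleted cells, and 3 in control and 5 in depleted cells under TMM scaling, where Pcbd2 turned to 0.05 in control cells. The list median was -0.93 in each line. Spr, sepiapterin reductase, the last step of synthesis, fell from 43.0 to 11.3 TPM in control cells (a difference of -1.83 ± 0.13, limma adjusted p = 1.85e-05) and from 50.4 to 12.6 TPM in depleted cells (-1.92 ± 0.09, adjusted p = 5.88e-07). Qdpr, which regenerates the cofactor after use, differed by -1.17 and -1.03. Gchfr, the feedback regulator of Gch1, fell by 0.68 in control and by 0.70 in depleted cells (-0.68 and -0.70), but TMM scaling took these to -0.25 and -0.14 and ended both calls (limma adjusted p = 0.0882 and 0.127).

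Of the 8 transport genes tested, 3 rose with LPS in both lines, while 2 fell in control and 4 in depleted cells. Under TMM scaling 5 were called higher and 1 lower in control cells, and 4 higher and 2 lower in depleted cells. Among all genes without TMM scaling, 14.8% were called higher and 44.1% lower in control cells, and 15.8% and 59.7% in depleted cells. Slc7a7, a light chain that exchanges cationic for neutral amino acids, went from 11.8 to 43.1 TPM in control cells (1.79 ± 0.12, limma adjusted p = 1.31e-05) and from 8.51 to 54.2 TPM in depleted cells (2.54 ± 0.08, adjusted p = 9.06e-08). Slc7a8, a light chain for neutral amino acids, rose by 1.89 and 1.82, and Slc3a2, the heavy chain both need, rose by 1.29 in control and 0.87 in depleted cells. Slc7a1, the cationic transporter present without LPS at 27.7 and 30.5 TPM, did not pass the test in either line (0.02 and -0.15), but was called higher in both under TMM scaling (0.44 and 0.42). Slc25a15, the mitochondrial ornithine carrier, was lower with LPS in both lines (-1.28 and -1.48, limma adjusted p = 0.000650 and 1.38e-05).

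Around Odc1, genes that build larger polyamines fell, and of those that break polyamines down 2 rose and others fell. Srm (spermidine synthase) fell by 1.51 in depleted cells (-1.51 ± 0.11, limma adjusted p = 5.24e-06) and differed by -1.01 in control cells, and Amd1, which makes the aminopropyl donor, differed by -1.32 and -1.43; Amd1 and its near copy Amd2 may share reads. Smox (spermine oxidase) rose by 2.13 and 2.12, from 50.3 to 222 TPM in control cells, and Sat1, the acetyltransferase that starts polyamine breakdown, rose by 1.36 and 1.59. Paox, the peroxisomal polyamine oxidase, fell by 1.34 in control and by 0.88 in depleted cells (-1.34 and -0.88). Of the 8 tested genes of this list 2 rose and 6 fell in each line, and under TMM scaling 2 rose in each, while 4 fell in control and 6 in depleted cells. Without TMM scaling, 14.8% of all genes were called higher and 44.1% lower in control cells, and 15.8% and 59.7% in depleted cells. Oaz1, the antizyme that sends Odc1 protein for degradation, differed by -0.39 and -0.53, and Azin1, its inhibitor, by -0.38 and -0.51, but TMM scaling turned all 4 signs (0.05 to 0.07).

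Among the other lists, all 5 tested genes of ornithine, proline and glutamate fell in both lines (2 and 3 of them under TMM scaling), Glul (glutamine synthetase) by most in control cells (-2.14). The share of all genes called lower without TMM scaling was 44.1% in control and 59.7% in depleted cells. Both creatine genes fell, Gamt with differences of -1.45 in control and -2.004 in depleted cells and Gatm with -0.90 and -0.95. Castor2, a relative of the cytosolic arginine sensor Castor1, differed by -2.26 and -2.35, and Castor1 itself by -1.09 and -1.15. Nostrin, an adaptor of the endothelial synthase, differed by -1.52 and -1.43. Ddah2 (0.87 and 0.83), the family member of methylarginine breakdown that was detected, and Hmox1 (1.47 and 0.79), haem oxygenase, rose.

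Between the lines, Slc7a8 was the 1 pathway gene of 46 called without LPS (1.22% of all genes were called), at 7.38 ± 0.492 TPM (SD, n = 3) in depleted against 20.1 ± 2.95 TPM (SD, n = 2) in control cells (-1.33 ± 0.10, limma adjusted p = 0.00278). With LPS its level was again lower, 28.5 ± 1.24 TPM against 76.8 TPM (-1.40 ± 0.13, adjusted p = 0.00268), with Hmox1 (-0.87, 0.00992), Slc7a6 (-0.58, 0.0255) and Slc3a2 (-0.46, 0.0453), 4 of 46 in all and none higher, beside 0.89% of all genes called higher and 4.38% lower. Under TMM scaling 3 were lower, without Slc3a2 (adjusted p = 0.0957), and Oaz2 (0.38) and Qdpr (0.47) were called higher, as they were after rescaling (0.35 and 0.43), which also called Slc7a7 lower without LPS (-0.47). With the library shown apart included, Slc7a8 lost its call without LPS (adjusted p = 0.472) and all 4 genes lost theirs with LPS (1.0 each). With only the groups compared, Hmox1, Slc7a6 and Slc3a2 lost theirs (0.134, 0.139 and 0.180), as did Slc7a8 without LPS (0.0729). Slc7a6 also lost it without depleted LPS replicate 1, 2 or 3 (0.0522, 0.0518 and 0.0697) or depleted no-LPS replicate 3 (0.0566). Slc3a2 lost it with no filter (0.0694), without depleted LPS replicate 1 or 3 (0.0867 and 0.110) and without depleted no-LPS replicate 1, 2 or 3 (0.0794, 0.0926 and 0.0892). None of the 46 genes passed the test of the difference between LPS responses at the adjusted threshold, where 0.226% of all genes did. At an unadjusted limma p under 0.05 there were 11, and the share of all genes at that unadjusted limit is not given here. Slc7a7 came nearest to the adjusted threshold at 0.75 (limma adjusted p = 0.0870) and passed it after rescaling (0.92, 0.0413).

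The genes whose log2 levels ran most like each member over the 9 libraries are given as a description; the libraries share 2 lines and 1 treatment, so any gene that moves strongly with LPS scores high. For Nos2 they were Gbp5, Acod1 and Usp18 (Pearson r 0.9998 each, among 9469 genes with a group mean log2 of at least 3). For Gch1 they were Slfn5, Slc28a2 and Plaur (0.9992 to 0.9997), for Slc7a2 Il6, Nfkbiz and Zfp36 (0.9994 to 0.9995) and for Odc1 Fpr2 (0.9996) and Edn1 (0.9993). For Ass1 they were Bcl3, Bcl2a1d and Jdp2 (0.9971 to 0.9982) and for Arg2 Tet2, Slc7a11 and Csf2 (0.9976 to 0.9982). Asl ran with other genes, Ddx41, Dtnbp1 and Atp6v1f (0.9802 to 0.9892), and no gene came closer to Arg1 than Dnajb2 (0.7742). Among the members, the 6 genes that rose with LPS had pairwise r of 0.9754 to 0.9985, Asl had r of -0.8203 to -0.7670 with each of them, and Arg1 had 0.2475 to 0.3139.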

How the data were processed

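RNA of RAW cells was sequenced as stranded total RNA libraries in paired reads, per the labels' protocols. The authors deposited log2 values per gene, quantified with kallisto 0.45.0 on GRCm38, per the submitters' processing notes; the annotation release and the summing of transcripts are not given in the sources used here. Raised from log2 and less 1, each library sums to 1000000, so values are log2(TPM + 1). TPM keep no read total.

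From these, limma 3.58.1 (R 4.3.3) was fitted to 1 model of 4 groups with a mean-variance trend, for the 13711 of 52143 genes that reached a log2 value of 1 in 2 or more libraries. P-values were adjusted by Benjamini-Hochberg over all genes tested, with a threshold of 0.05. The fit used 9 libraries, with 5 residual degrees of freedom. Ranges are 95% intervals. The script was tested on simulated data.

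Named are the 8 members, up to 3 called genes with the largest difference per pathway list and comparison, and the 3 genes most correlated with each member. A few genes that this rule or the marker lists name are not reported here. Slc7a1, Gchfr, Oaz2, Amd1, Amd2, Srm in control cells, Pcbd2, the genes that overlap members and those listed at 0 fall outside this rule and were named after their values were seen. The members and lists were chosen with earlier results of these data known. Positions come from GENCODE M21. Among 45 pairs of libraries, 0 held identical values. Alternatives covered the pseudocount, filter, scaling, libraries, replicate block and groups fitted.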

Additional observations from a re-analysis of the deposited data

Results flagged for a closer look

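In the control library without LPS labelled replicate 2, which entered no fit, 2 of the 8 genes stood above both other control libraries without LPS although most transcripts stood far below them. Arg1 was at 0.549 TPM there, against at most 0.440 TPM in control replicates 1 and 3. Slc7a2 was at 0.102 TPM, against at most 0.0381 TPM. Both levels are under 1 TPM, and protein-coding genes held 7.80% of that library's TPM; the part of its composition in these levels was not tested. No gene's difference between LPS responses passed limma's test among the 7 tested members.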

How the results depend on the processing

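Over the settings tried, 518 of 562 log2 differences of the members kept their direction and their side of the threshold, 22 lost and 5 gained the threshold, and 17 changed sign. A setting that changes only the filter, or libraries of groups not compared, cannot move a difference, so part of the kept directions was fixed in advance. For the pathway genes, alternatives chosen after seeing the data gave 855 of 966 kept, 98 lost and 13 with a changed sign. The LPS calls of Nos2, Gch1, Slc7a2, Ass1 and Arg2 held in both lines under every alternative that tested them. Nos2, Slc7a2 and Arg2 reached the filter only through the libraries with LPS, so their calls follow in part from the filter. Arg2 was not tested under the stricter filter. Depth is unknown, and 1 control library with LPS limits every comparison that uses it.

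With the control library shown apart (10 libraries), limma called 481 genes for LPS in control and 2236 in depleted cells, and 0 for each of depletion without LPS (408 at an unadjusted p under 0.05), depletion with LPS (221) and the difference between responses (226); no member was called for depletion with LPS. The same fit turned the sign for Asl with LPS in control cells (0.69), Gch1 for depletion without LPS (0.45) and, for the difference between responses, Ass1 (-0.44) and Gch1 (-0.61). In control cells with LPS it turned Oat (0.14), Oaz1 (0.80), Azin1 (0.47), Dohh (0.60), Gatm (0.16), Adh5 (0.32) and Cyb5r3 (0.45). TMM scaling turned Asl with LPS in control cells (0.25), Nos2 for depletion with LPS (0.098) and for the difference (0.034), and with LPS Nosip (0.15) and Eif5a (0.38) in depleted cells, Oaz1 (0.0503 in control and 0.0568 in depleted cells) and Azin1 (0.060 and 0.0734). Rescaling, with mitochondrial and the 100 most abundant genes left out, turned Nos2 for depletion with LPS (0.0569) and Arg2 for depletion without LPS (-0.0015), and a pseudocount of 0.1 turned Ass1 for the difference (-0.028).

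For depletion without LPS, 1 member was called with a pseudocount of 0.1, a stricter filter, TMM scaling or rescaling, and 271 genes were called after rescaling and 16 with only the groups compared. Where no count of all genes stands beside a count of members, here and in the next sentence, it is not given. For depletion with LPS, 1 member was called with no filter, TMM scaling or rescaling and 0 with only the groups compared, which gave 56 genes; LPS in control cells gave 2859 genes in that fit. The difference between responses gave 360 genes with no filter, 73 with a stricter one, 87 with TMM scaling and 65 after rescaling.

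Leaving out 1 library at a time, 6 to 7 members and 7339 to 8032 genes were called for LPS in control cells, 7 members and 9849 to 10433 genes for LPS in depleted cells, 0 members and 55 to 166 genes for depletion without LPS, 0 to 2 members and 316 to 946 genes for depletion with LPS, and 0 members and 0 to 21 genes for the difference. The fewest genes came without control replicate 3 for depletion without LPS, without depleted LPS replicate 3 for depletion with LPS, and without depleted LPS replicate 1 or 2 for the difference (0 genes by limma; 2374 and 2464 at an unadjusted p under 0.05). Without control replicate 1 without LPS the sign turned for Nos2 (-0.0137 to 0.15 over the libraries left out) and Asl (-0.21 to 0.32) in depletion without LPS and for Ass1 in the difference (-0.029 to 0.23). Without control replicate 3 without LPS it turned for Asl with LPS in control cells (-0.45 to 0.0881) and Arg2 in depletion without LPS (-0.091 to 0.11), and Arg2 also turned without depleted replicate 3 without LPS (-0.0026). The causes of these shifts were not tested.

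Same-numbered depleted libraries without and with LPS correlated at 0.0617, 0.0715 and 0.0970 in their deviations from the group means over 13711 genes. Those with different numbers correlated at -0.0707 to -0.0042. The same-number values were under the limit of 0.1, so the numbers were not taken as pairs, although each library correlated best with its own number. The labels number the libraries by set and do not say what a set shares, so shared handling within a set remains possible. With the replicate block limma called 58 genes for depletion without LPS, 83 for depletion with LPS (0 members) and 0 for the difference (1820 at an unadjusted p under 0.05), and Arg2 turned to -0.0133 in depletion without LPS. For depletion with LPS the block ended the calls of Ass1 (adjusted p = 0.124), Odc1 (0.117), Hmox1 (0.0621), Slc7a6 (0.0863) and Slc3a2 (0.127).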
